A study of Mus musculus with 19 samples.

Results

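The genes described here are 36 in number: Myc and 35 genes of ribosome biogenesis, named as a list and looked up by mouse symbol among the 26796 genes of the deposited table. All 36 were found, and all 36 passed the filter on low counts that kept 15629 genes. They were measured by RNA sequencing of whole tumours formed by Met1, a transplantable line from a mouse mammary carcinoma, in mice that received extracellular vesicles, the membrane-bound particles that cells release. In 10 tumours (27HC) the vesicles came from neutrophils treated with 27-hydroxycholesterol, a metabolite of cholesterol, and in 9 tumours (DMSO) from neutrophils treated with the vehicle DMSO. All the mice thus received neutrophil vesicles, and no tumour without vesicles was analysed here. Mouse strain and age, and the dose and timing of the vesicles, are not in the labels. The question was whether 27HC changed the level of these genes, how they relate to Myc, and whether either differs by the first number of the sample title, 1 (5 tumours of 27HC and 5 of DMSO) or 2 (5 of 27HC and 4 of DMSO), whose meaning the labels do not state. Nor do they tie tumours to single mice, so p-values measure the spread between these samples, which may be technical.

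A ribosome is built in the nucleolus. RNA polymerase I transcribes a long precursor, small nucleolar ribonucleoproteins (snoRNPs) of the box C/D and H/ACA kinds methylate and pseudouridylate it, and further factors fold and cut it into the small and the large subunit. Myc is a transcription factor that binds many of these genes, often at the sequence CACGTG, and tumours with high Myc commonly make more ribosomes.

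The libraries held 28139419 to 41179056 expected counts. A group of 5 libraries, 27HC replicates 1_3, 1_5 and 2_3 and DMSO replicates 1_5 and 2_3, stood apart: the mean GC content of the transcripts their counts came from was 49.0% to 49.3%, against 50.6% to 52.3% in the other 14, and they are called low-GC libraries below. Of the mammary and epithelial markers checked against the label of a breast tumour, Krt18 had 36 to 132 CPM (counts scaled to the normalized library size), Epcam 0.26 to 13.2, Krt8 0.176 to 9.55 and Cdh1 2.82 to 12.1 CPM, while the milk genes Csn2 and Wap had medians of 0.0796 and 0 CPM. The label of a mammary epithelial tissue thus rests on Krt18 and low levels of the others. Skeletal muscle was uneven: its 14 markers summed to 6.32 to 5270 CPM (median 233) in 27HC tumours and 7.47 to 1600 CPM (median 41.1) in DMSO tumours. In bulk tissue, fewer cells of a type and less RNA per cell cannot be told apart.

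Promoters of 4 members are shown, since the relation to Myc is what follows: Utp4 and Wdr43 hold CACGTG, while Ddx21 and Rrp1b do not. Rrp1b has a further window, chr17:32048035-32048334, that also lacks CACGTG and is not printed. Each line gives 250 bases before and 50 after the RefSeq start in GRCm38.p6, 5′ to 3′ on the gene's strand, with CACGTG in capitals.
Utp4, chr8:106893390-106893689, plus strand: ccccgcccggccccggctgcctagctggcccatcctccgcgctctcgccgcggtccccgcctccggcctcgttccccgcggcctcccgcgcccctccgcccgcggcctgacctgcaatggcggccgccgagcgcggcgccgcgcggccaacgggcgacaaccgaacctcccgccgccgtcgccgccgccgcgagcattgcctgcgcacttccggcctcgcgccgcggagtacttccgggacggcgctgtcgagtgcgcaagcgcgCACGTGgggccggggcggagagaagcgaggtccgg
Wdr43, chr17:71615965-71616264, plus strand: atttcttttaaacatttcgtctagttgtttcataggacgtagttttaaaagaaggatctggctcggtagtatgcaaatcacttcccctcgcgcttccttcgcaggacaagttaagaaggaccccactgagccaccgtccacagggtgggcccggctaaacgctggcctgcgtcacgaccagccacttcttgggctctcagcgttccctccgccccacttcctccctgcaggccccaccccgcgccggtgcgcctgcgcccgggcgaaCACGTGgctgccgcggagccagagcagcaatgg
Ddx21, chr10:62602249-62602548, minus strand: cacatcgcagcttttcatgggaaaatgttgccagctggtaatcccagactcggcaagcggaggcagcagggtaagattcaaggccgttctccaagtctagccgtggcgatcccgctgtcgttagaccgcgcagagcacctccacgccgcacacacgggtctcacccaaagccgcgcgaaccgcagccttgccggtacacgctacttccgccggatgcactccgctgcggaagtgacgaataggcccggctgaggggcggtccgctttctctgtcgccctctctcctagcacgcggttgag
Rrp1b, chr17:32035912-32036211, plus strand: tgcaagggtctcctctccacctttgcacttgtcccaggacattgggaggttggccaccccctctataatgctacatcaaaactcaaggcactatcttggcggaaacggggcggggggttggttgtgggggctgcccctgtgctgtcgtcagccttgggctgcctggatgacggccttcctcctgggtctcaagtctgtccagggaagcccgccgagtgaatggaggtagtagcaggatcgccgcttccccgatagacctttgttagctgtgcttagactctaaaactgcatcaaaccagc

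Windows were found for 30 of the 36 members, and Myc was among those without one. CACGTG, which reads the same on both strands, was in the windows of 7 of the 30: Mybbp1a, Nop2, Pes1, Tsr1, Utp20, Utp4 and Wdr43. Over all 32851 windows of this length 7.15% held it, and 8.09% of the 27025 genes had it in any window. A match is a description of letters and not of binding. In Utp4 the match starts at base 16 after the start and in Wdr43 at base 18.

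Between 27HC and DMSO tumours none of the 36 genes passed the test. The levels of 30 lay below 0 on the log2 fold scale with 27HC and those of 6 above, in a range of -0.32 (Nop58) to 0.11 (Nop10) with a median of -0.09, beside a median of 0.01 and 46.1% below 0 over all tested genes. In edgeR's quasi-likelihood test 0 of 15629 genes were called at a Benjamini-Hochberg adjusted p under 0.05 (0.0%), and 354 (2.27%) had an unadjusted p under 0.05, of which 0 were members. By limma-voom 0 genes were called, and by DESeq2 2 genes, 0 of them members. The 95% interval of the fold change stayed within 2-fold for all 36 members, against 86.3% of all tested genes, and within 1.5-fold for 27 members, against 53.2%.

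**Figure D1:**
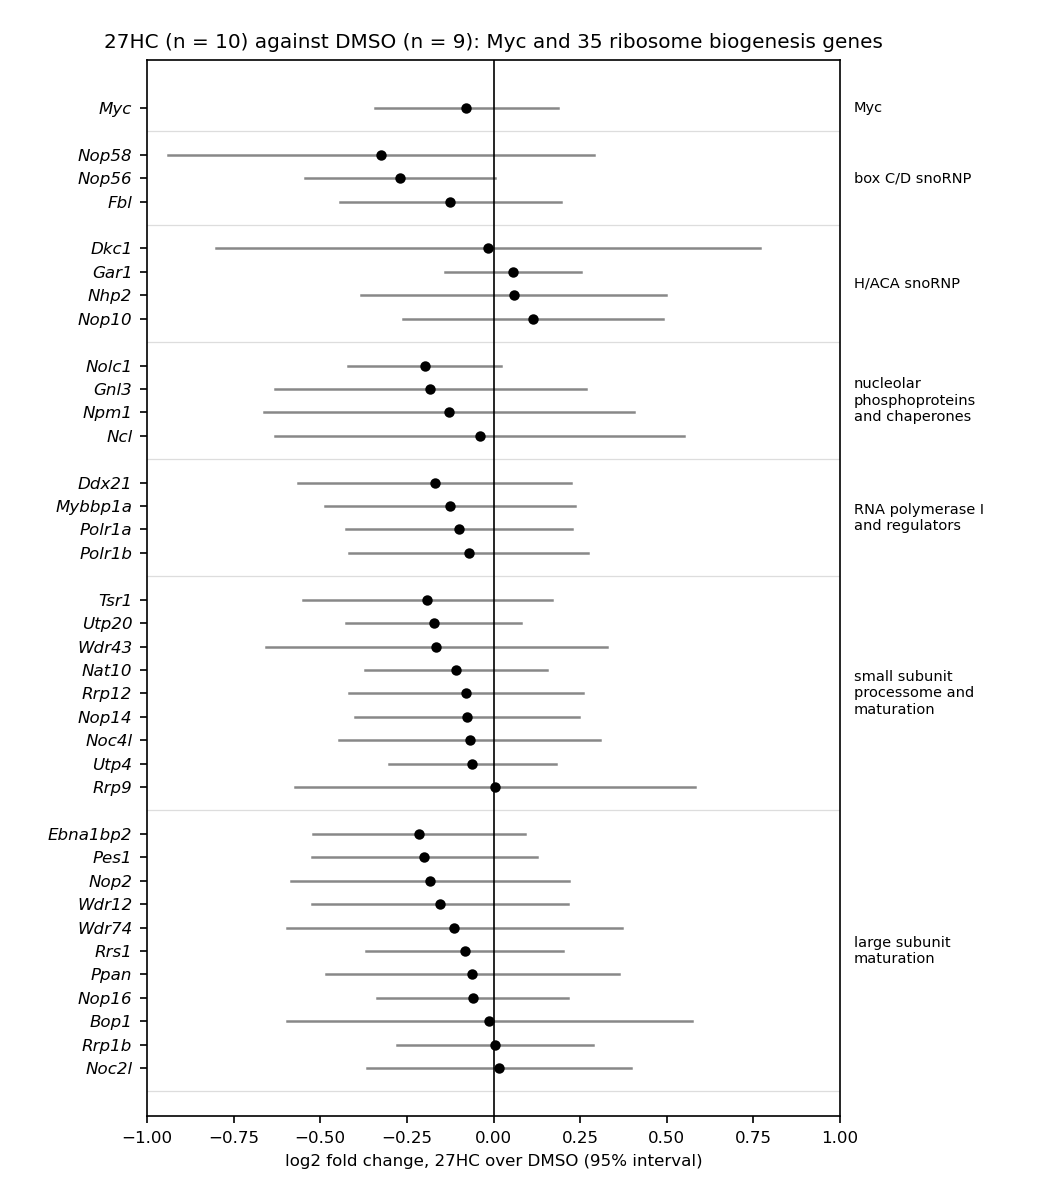
Log2 fold change of 27HC (n = 10) over DMSO (n = 9) for each of the 36 genes (points) with its 95% interval (bars), in groups by role. Points lie between -0.32 and 0.11, and every interval includes 0.

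Myc itself (GRCm38 chromosome 15, 61985391 to 61990374) had 67.2 CPM in the lowest, 87.0 in the median and 132 in the highest 27HC tumour, and 80.3, 96.3 and 116 CPM in DMSO tumours. The groups overlapped, with the 27HC tumours spread more widely on both sides. Myc averaged 90.9 ± 20.6 CPM in 27HC tumours (SD, n = 10) and 95.9 ± 11.7 CPM in DMSO tumours (SD, n = 9). Its log2 fold change was -0.08, with a 95% interval of -0.34 to 0.19.

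Among the box C/D proteins, which carry and serve the RNA methyltransferase, all 3 lay below 0: Nop58 at -0.32 (SE 0.30), Nop56 at -0.27 (SE 0.13) and the methyltransferase gene Fbl at -0.12 (SE 0.15). Nop56 had the smallest p of all members (unadjusted edgeR p = 0.053, adjusted p = 1). Its level was 72.1 CPM in the lowest, 93.4 in the median and 127 in the highest 27HC tumour, and 77.0, 114 and 136 CPM in DMSO tumours. Only 1 of 10 27HC tumours, the low-GC replicate 1_3, lay above the DMSO median. Without the 5 low-GC libraries the log2 fold change of Nop56 was -0.31 (unadjusted edgeR p = 0.0349, adjusted p = 0.787) and that of Nop58 -0.52 (unadjusted p = 0.0222, adjusted p = 0.787). There 4 members, these 2 with Tsr1 and Ebna1bp2, had an unadjusted p under 0.05, beside 6.01% of all tested genes.

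The proteins of the H/ACA particle, which pseudouridylates RNA, had a median of 0.06, and 1 of the 4 lay below 0. Dkc1, the pseudouridine synthase, was at -0.02 (SE 0.38), and its partners Gar1, Nhp2 and Nop10 were at 0.06 (SE 0.09), 0.06 (SE 0.21) and 0.11 (SE 0.18). Dkc1 had the widest interval of the 36, -0.80 to 0.77, and its highest tumour stood 11.2-fold above its lowest. Gar1 had the narrowest, -0.14 to 0.25, with 1.43-fold between its extremes.

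Of the nucleolar phosphoproteins and chaperones, all 4 lay below 0, between -0.20 for Nolc1, which binds snoRNPs, and -0.04 for Ncl (nucleolin). Npm1, a histone chaperone that also carries subunits, was at -0.13 (SE 0.26), and Gnl3 (nucleostemin) at -0.18 (SE 0.22). Nolc1 had 56.7, 72.9 and 89.8 CPM in the lowest, median and highest 27HC tumour and 70.7, 84.9 and 109 CPM in DMSO tumours (unadjusted edgeR p = 0.0769, adjusted p = 1), and 2 of 10 27HC tumours exceeded the DMSO median. The 2 largest subunits of RNA polymerase I, Polr1a and Polr1b, were at -0.10 (SE 0.16) and -0.07 (SE 0.17), and the helicase gene Ddx21 and the nucleolar repressor gene Mybbp1a at -0.17 (SE 0.19) and -0.13 (SE 0.17).

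The small subunit processome is the particle that cuts and folds the small subunit's part of the precursor. Of the 9 genes of this particle and of small subunit maturation, 8 lay below 0, with a median of -0.08. The 9 ran from -0.19 for Tsr1 (SE 0.17) to 0.00 for Rrp9 (SE 0.28). For the large subunit the count was 9 of 11, again with a median of -0.08. The PeBoW complex, which large subunit maturation needs, was at -0.20 for Pes1, -0.15 for Wdr12 and -0.01 for Bop1. Ebna1bp2 had 33.8, 39 and 60.2 CPM in the lowest, median and highest 27HC tumour and 38.8, 47.1 and 64.5 CPM in DMSO tumours, a log2 fold change of -0.22 (SE 0.15, unadjusted edgeR p = 0.16, adjusted p = 1). Its 3 27HC tumours above the DMSO median were the 3 low-GC ones. Without the 5 low-GC libraries it was at -0.34 (unadjusted edgeR p = 0.00455, adjusted p = 0.787), the smallest p among the members there.

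**Figure D2:**
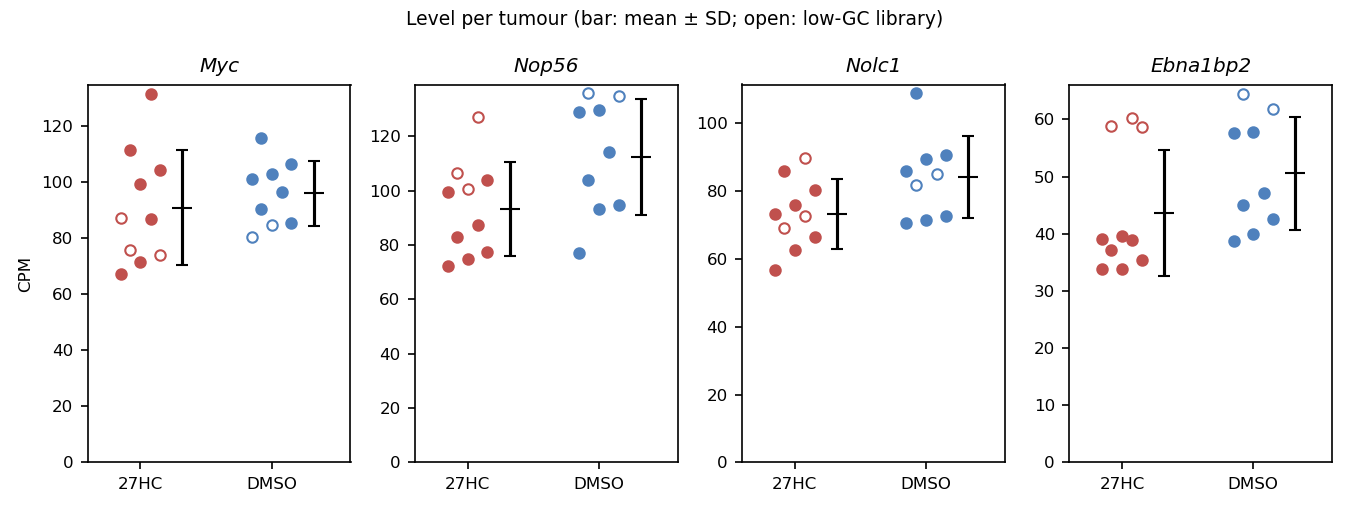
CPM per tumour (points) of Myc, Nop56, Nolc1 and Ebna1bp2 in 27HC (left, red) and DMSO (right, blue) tumours, with mean ± SD (bars); open points are low-GC libraries. The groups overlap in every panel, and for Ebna1bp2 the 3 highest 27HC points, 58.7 to 60.2 CPM, are all open.

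Summed over the 35 genes other than Myc, the level was 3020 ± 231 CPM in 27HC tumours (SD, n = 10) and 3240 ± 385 CPM in DMSO tumours (SD, n = 9). The difference was under 1 SD of the DMSO tumours. Without the 5 low-GC libraries the median over the 36 genes was -0.07, with 26 below 0. With a correction for GC content it was -0.12, with 34 below 0. With the skeletal muscle score as a covariate it was -0.08, with 29 below 0.

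The other genes of ribosome biogenesis showed values of the same size. Of 132 tested genes of the small and large subunit, RNA polymerase I, snoRNP assembly and the RNA exosome, 0 were called, 92 lay below 0 and the median was -0.08. The smallest p in these lists was that of Ddx18, a nucleolar helicase, at -0.26 (SE 0.11, unadjusted edgeR p = 0.0279), then that of Exosc2, an exosome subunit, at -0.28 (SE 0.13, unadjusted p = 0.0423). Among Myc targets outside the nucleolus 20 of 25 lay below 0 (median -0.09), among replication and mitosis genes 17 of 20 (median -0.11), and in the Myc network of partners and antagonists 5 of 13 (median 0.03). None of these genes was called.

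The first title number gave no call either. Set against number 1 (n = 10), number 2 tumours (n = 9) had 25 of the 36 genes below 0, with a median of -0.07 and a range of -0.30 to 0.14, beside 53.2% of all tested genes below 0 and a median of -0.01. edgeR called 0 of 15629 genes (0.0%), and 384 (2.46%) had an unadjusted p under 0.05, of which 0 were members. The smallest p belonged to Nhp2, with 57.6, 94.2 and 142 CPM in the lowest, median and highest number 2 tumour and 64.6, 105 and 180 CPM in number 1 tumours (log2 fold change -0.30, SE 0.21, unadjusted p = 0.169). Nop56 followed at -0.16 (SE 0.13, unadjusted edgeR p = 0.228), with 72.1, 93.0 and 136 CPM in number 2 and 77.0, 104 and 135 CPM in number 1 tumours. Nop10 was at -0.22 (SE 0.18, unadjusted edgeR p = 0.239), with 13.8, 19.5 and 25.8 CPM in number 2 and 13.7, 24.0 and 34.3 CPM in number 1 tumours. Myc was at 0.08 (SE 0.13). All 14 skeletal muscle markers were lower in number 2 (median -3.80, 14 with an unadjusted p under 0.05, 0 called), and their part in these values was not tested.

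The difference between the numbers in the effect of 27HC was tested as an interaction, and edgeR called 0 of 15629 genes (0.0%). An unadjusted p under 0.05 was found for 223 genes (1.43%), 0 of them members. The interaction ran from -0.84 (Dkc1) to 0.51 (Wdr74) over the members, with a median of -0.09 beside -0.02 over all tested genes. Within number 2 the median log2 fold change of 27HC over DMSO was -0.14, with 27 of 36 below 0, and within number 1 it was -0.07, with 21 of 36 below 0. Nop56 had the smallest p (interaction -0.35, SE 0.26, unadjusted edgeR p = 0.194). Among number 2 tumours it had 72.1, 75.0, 77.3, 83.1 and 106 CPM with 27HC and 93.0, 94.5, 130 and 136 CPM with DMSO, where 4 of 5 27HC tumours lay below all 4 of DMSO. Among number 1 tumours it had 87.3, 99.5, 101, 104 and 127 CPM with 27HC and 77.0, 104, 114, 129 and 135 CPM with DMSO, and the groups overlapped. Ddx21 averaged 87.9 ± 27.2 CPM with 27HC (SD, n = 5) and 118 ± 15.8 CPM with DMSO (SD, n = 4) in number 2 tumours, and 99.2 ± 34.1 and 94.7 ± 35.1 CPM with 27HC and DMSO in number 1 tumours (SD, n = 5 each). Its interaction was -0.50 (SE 0.38, unadjusted edgeR p = 0.211). Nolc1 averaged 69.6 ± 9.73 CPM with 27HC (SD, n = 5) and 88.0 ± 15.1 CPM with DMSO (SD, n = 4) in number 2 tumours, and 76.8 ± 10.5 and 80.8 ± 9.57 CPM with 27HC and DMSO in number 1 tumours (SD, n = 5 each). Its interaction was -0.27 (SE 0.22, unadjusted edgeR p = 0.236).

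Many of the 36 genes differed between the low-GC libraries and the other 14. All 5 low-GC libraries lay above the other 14 for 8 members (Nop58, Dkc1, Ncl, Npm1, Gnl3, Ddx21, Wdr43 and Ebna1bp2) and below them for 13, so that 21 of 36 (58.3%) did not overlap, beside 23.9% of all tested genes. Dkc1 had 49.1, 71.8, 73.0, 80.2 and 101 CPM in the low-GC libraries, against 9.07 in the lowest, 26.0 in the median and 35.3 in the highest of the other 14. Bop1 moved the other way, at 43.0 in the lowest, 49.0 in the median and 66.1 CPM in the highest low-GC library, against 77.9, 126 and 203 CPM in the other 14. Partners in the same particle went apart: in the H/ACA particle the log2 difference, low-GC minus other, was 1.59 for Dkc1 and -0.74 for Nhp2, and among box C/D proteins 1.17 for Nop58 and -0.55 for Fbl.

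This division went with the GC content of the genes' own transcripts. The 5 libraries were set apart by the GC content of their counts, so this direction was built in and is no separate result. Of the 14 members whose longest transcript has under 50% GC, 12 were higher in the low-GC libraries (median log2 difference 0.66), and of the 22 with at least 50% GC 2 were (median -0.62). Across the 35 genes other than Myc, Pearson's r between transcript GC and this difference was -0.86, beside -0.69 across the 15406 tested genes with a GC value. These are correlations across genes of the same libraries, and genes are not independent replicates. DMSO replicate 1_2, whose counts had the highest mean transcript GC (52.3%), held the lowest values of Ncl (103 CPM), Nop58 (15.9 CPM), Npm1 (121 CPM) and Dkc1 (9.07 CPM). The skeletal muscle markers also moved with the libraries, summing to a median of 954 CPM in the low-GC ones and 46.5 CPM in the other 14. In the same order, medians were 66.5 and 135 CPM for epithelial markers and 108 and 33.7 CPM for B and plasma cells. They were 159 and 94.3 CPM for T and NK cells, 2950 and 2380 CPM for macrophages and 2960 and 3210 CPM for fibroblasts. The ranges overlapped for all of these lists. The part of these cell types in the differences between libraries was not tested. Npm1 has many processed pseudogenes, and its estimated counts carry that uncertainty.

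**Figure D3:**
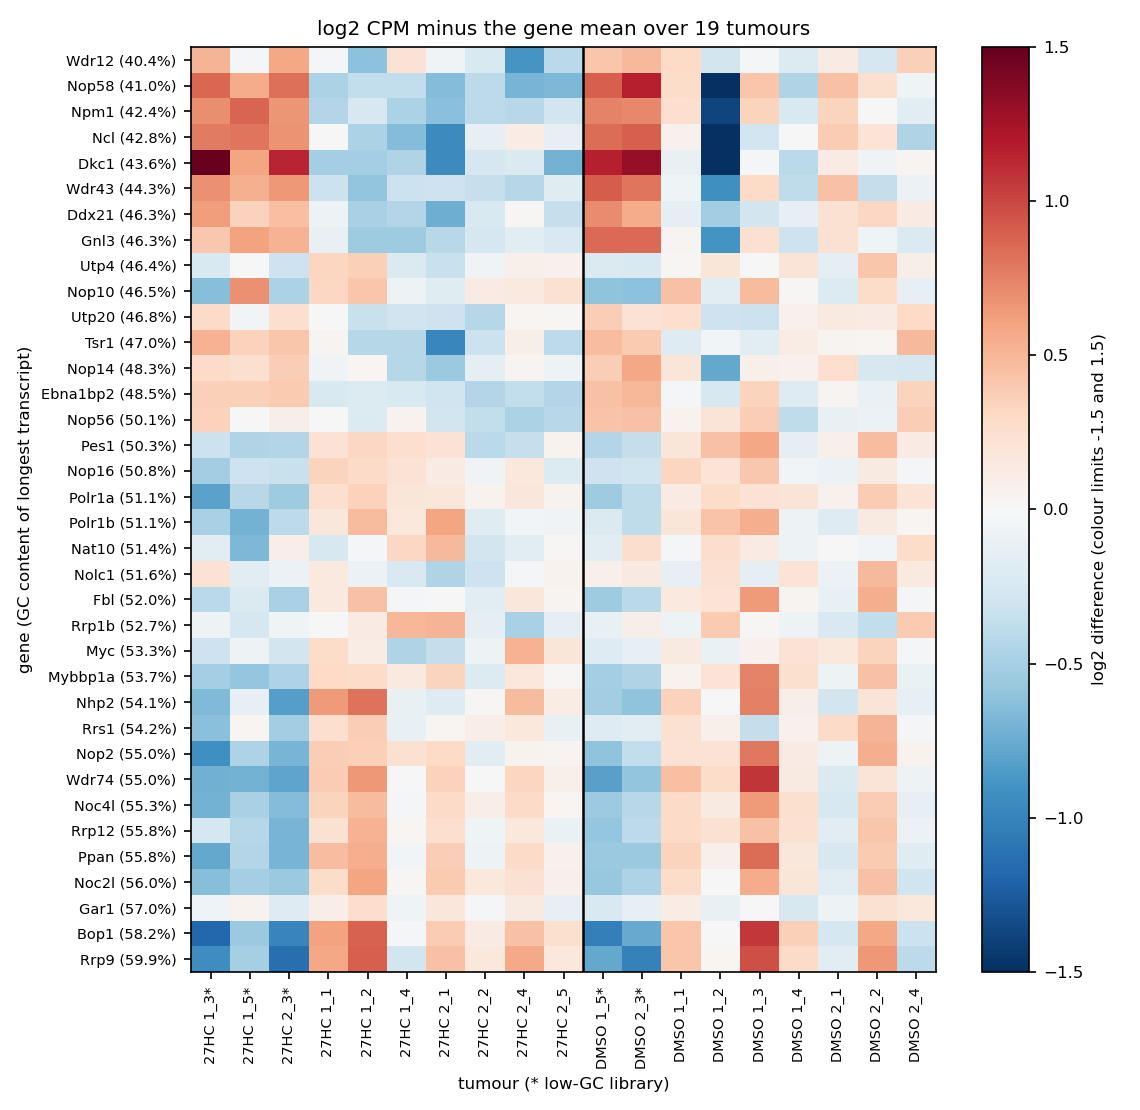
Log2 CPM of each gene minus its mean over the 19 tumours (colour, limits -1.5 and 1.5), with genes ordered by transcript GC content from 40.4% (top) to 59.9% (bottom) and tumours in columns, 27HC left of the black line and DMSO right; asterisks mark low-GC libraries. The starred columns are mostly red at the top and mostly blue at the bottom in both groups.

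The slope on Myc, the log2 change of a gene per log2 unit of Myc with the treatment held fixed, was positive for 20 of 35 genes (median 0.23, beside -0.09 over all tested genes). edgeR called 6 members at an adjusted p under 0.05. Nhp2 (1.25, SE 0.35, adjusted p = 0.0226), Utp4 (0.67, SE 0.19, adjusted p = 0.0248) and Rrp9 (1.46, SE 0.48, adjusted p = 0.0428) rose with Myc. Wdr12 (-1.13, SE 0.28, adjusted p = 0.0148), Rrp1b (-0.75, SE 0.23, adjusted p = 0.0314) and Nop56 (-0.67, SE 0.23, adjusted p = 0.0464) fell as Myc rose. Of 15628 tested genes 7.05% were called with a positive and 11.0% with a negative slope, so the members' shares of 8.57% in each direction were near the background. Of the 6, only Utp4 has CACGTG in its promoter window, and the slopes of the 7 genes with a match ran from -0.99 (Wdr43) to 0.67 (Utp4).

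Markers of some other cell types moved with Myc in the same fit of 19 libraries. In the epithelial, neutrophil, fibroblast, endothelial and fat cell lists 0 were called, and 1 of 13 T and NK cell markers was, with a negative slope. Of 11 macrophage markers 6 were called with a negative slope (median -1.05), while 4 lay above 0. Of 7 markers of B and plasma cells 5 were called with a negative slope (median -2.20), beside 11.0% of all tested genes. All 14 skeletal muscle markers lay below 0 (median -3.54, 0 called). Macrophage markers summed to 1950 to 3730 CPM (median 2950) in the low-GC libraries and 1840 to 3560 CPM (median 2380) in the other 14. B and plasma cell markers summed to 24.2 to 138 CPM (median 108) and 22.4 to 82.9 CPM (median 33.7). Without the low-GC libraries 0 macrophage, B and plasma cell or muscle markers were called. Their medians were -0.35 for macrophages, -1.32 for B and plasma cells (6 tested) and 0.97 for muscle. The part of these cell types in the slopes of the ribosome biogenesis genes was not tested.

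None of the 6 genes was called without the low-GC libraries, while all 6 slopes kept their sign. Myc averaged 80.3 ± 5.63 CPM in the 5 low-GC libraries (SD, n = 5) and 97.9 ± 17 CPM in the other 14 (SD, n = 14). In the other 14 libraries edgeR called 70 of 15259 genes (0.459%) and 0 members. The slope of Rrp1b was steeper there, at -1.14 (SE 0.27, adjusted edgeR p = 0.0668). Those of Utp4 (0.55, SE 0.24, adjusted p = 0.272), Wdr12 (-0.87, SE 0.31, adjusted p = 0.183) and Nop56 (-0.51, SE 0.27, adjusted p = 0.351) moved by less than 1.5 times. Those of Nhp2 (0.55, SE 0.35, adjusted p = 0.456) and Rrp9 (0.42, SE 0.40, adjusted p = 0.634) were smaller by more than that. An unadjusted p under 0.05 was found for 8 of the 35 members there, beside 16.6% of all tested genes. Leaving out any single low-GC library had a like effect, with 35 to 73 genes and 0 members called. Across the 35 genes the slope in all 19 libraries went with transcript GC (r = 0.77 across genes, beside 0.47 across all tested genes). It was positive for 2 of 14 members under 50% GC and for 18 of 21 at or above it. With GC content corrected in each library, 2 members were called, Ncl (1.06, adjusted edgeR p = 0.019) and Rrp1b (-0.71, adjusted edgeR p = 0.0292), beside 330 genes in all (2.14%). The slopes of the rest of the 6 were then 0.20 for Utp4 (SE 0.33), 0.69 for Nhp2 (SE 0.29) and 0.43 for Rrp9 (SE 0.25). Those of Wdr12 and Nop56 were -0.82 (SE 0.25) and -0.21 (SE 0.24). With the low-GC libraries as a covariate, the 3 members called were Rrp1b (-1.04, adjusted edgeR p = 0.00524), Ncl (1.26, adjusted edgeR p = 0.0418) and Nat10 (-0.72, adjusted edgeR p = 0.0448), a share of 8.57% beside 7.25% of all tested genes.

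**Figure D4:**
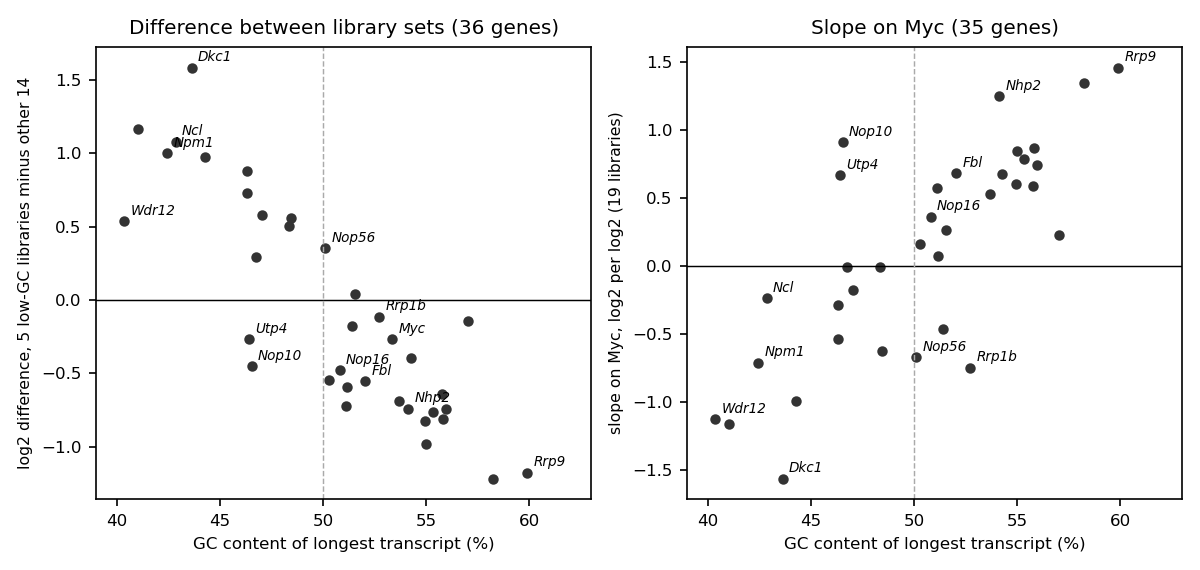
Left, the log2 difference between the 5 low-GC libraries and the other 14 against transcript GC content for 36 genes (points); right, the slope on Myc in 19 libraries against transcript GC content for the 35 genes other than Myc; dashed lines mark 50%. Differences fall with GC content (r = -0.86 across 35 genes) and slopes rise with it (r = 0.77). The libraries were set apart by GC content, so the direction on the left was built in.

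Because the low-GC libraries form a cluster of their own, correlations with Myc are given mainly within the other 14, and the 5 are too few for one. The counts of these 14 still ranged from 50.6% to 52.3% in mean transcript GC. Across the 35 genes, transcript GC and the r with Myc in the 14 had r = -0.096. There 28 of 35 genes had a positive Pearson's r, beside 55.8% of all tested genes, with a median of 0.26 beside 0.07. Permutation gave a two-sided p under 0.05 for 9 of the 35 correlations, 7 positive and 2 negative, and these p-values are unadjusted. Of all tested genes 18.9% had an r at least as far from 0 as the smallest of the 9, so a p of this size is common in these libraries. Ncl, whose protein binds the precursor RNA, had r = 0.67 (permutation p = 0.0102) and Spearman's rho = 0.83 (permutation p = 0.00051). Ddx21, the helicase, had r = 0.66 (permutation p = 0.0102) and rho = 0.68 (permutation p = 0.00869), and Nop14, a processome protein, r = 0.64 (permutation p = 0.0146) and rho = 0.54 (permutation p = 0.049). Utp4 had r = 0.64 (permutation p = 0.0124) and rho = 0.58 (permutation p = 0.0305). Nolc1, Tsr1 and Utp20 had r of 0.56, 0.55 and 0.54. With GC content corrected in each library, r in these 14 was 0.82 for Ncl, 0.81 for Ddx21, 0.67 for Nop14 and 0.26 for Utp4. It was 0.69 for Nolc1, 0.61 for Tsr1 and 0.58 for Utp20. Transcript GC was 42.8% for Ncl, 46.3% for Ddx21, 48.3% for Nop14 and 46.4% for Utp4. For Nolc1, Tsr1 and Utp20 it was 51.6%, 47.0% and 46.8%. Over all 19 libraries the uncorrected r was 0.06 for Ncl, -0.04 for Ddx21, 0.09 for Nop14 and 0.73 for Utp4. It was 0.39 for Nolc1, 0.03 for Tsr1 and 0.10 for Utp20 there, so most of these positive relations were not seen in the full set. In the all-gene fit of these 14 libraries none of these genes passed.

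The 2 negative ones were Rrp1b and Nat10. Over all 19 libraries their r was -0.64 and -0.35. With GC content corrected it was -0.80 and -0.62 in the 14, and their transcripts have 52.7% and 51.4% GC. Rrp1b, a nucleolar protein of large subunit maturation, had r = -0.87 (permutation p = 4e-05) and rho = -0.82 (permutation p = 0.00065). Nat10, the RNA acetyltransferase, had r = -0.74 (permutation p = 0.00241) and rho = -0.68 (permutation p = 0.00908), and 2.25% of all tested genes had an r as low or lower. Rrp1b had 61.3 and 61.8 CPM in the 2 libraries with the lowest Myc, 27HC replicates 1_4 and 2_1 (67.2 and 71.5 CPM of Myc), and 31.1 CPM in the library with the highest, 27HC replicate 2_4 (132 CPM of Myc). Without replicates 1_4 and 2_1, the 2 farthest from the median of Myc, r was -0.78 for Rrp1b, -0.49 for Nat10, 0.63 for Ncl, 0.47 for Ddx21 and 0.44 for Nop14. It was 0.41 for Utp20, 0.28 for Utp4, 0.27 for Nolc1 and 0.14 for Tsr1. Leaving out these 2 libraries also narrows the range of Myc, so a smaller r does not show what a relation rests on. Within number 2 and number 1 (7 libraries each) r was -0.88 and -0.91 for Rrp1b, -0.64 and -0.91 for Nat10, and 0.81 and 0.56 for Ncl, and 31 of the 35 genes had the sign of their pooled r in both.

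**Figure D5:**
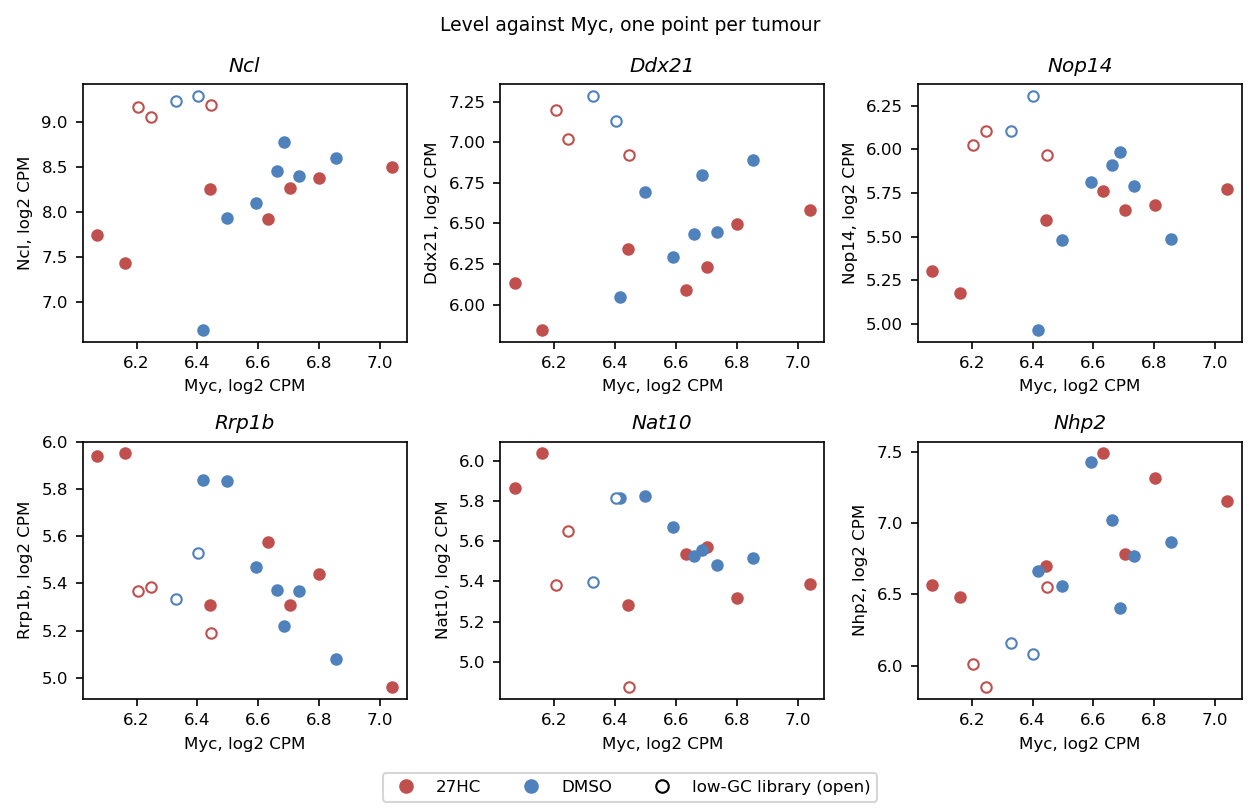
Log2 CPM of 6 genes (vertical axis) against log2 CPM of Myc (horizontal axis), one point per tumour, 27HC in red and DMSO in blue; open points are the 5 low-GC libraries. Ncl, Ddx21 and Nop14 rise with Myc among the 14 filled points, and Rrp1b (r = -0.87) and Nat10 (r = -0.74) fall. The open points lie off these trends for Ncl, Ddx21 and Nop14.

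Among themselves the 35 genes did not vary as 1 block. Of 595 pairs, 154 had r above 0.7 over the 19 libraries and 40 had r below -0.7, against 96 and 1 in the 14 libraries without low GC. Examples were picked after their values were seen. Dkc1 with Npm1 had r = 0.92 over the 19, 0.89 in the 14 and 0.50 over the 19 after GC correction. Nhp2 with Nop10 had 0.81, 0.87 and 0.76, and Nhp2 with Bop1 0.92, 0.86 and 0.85. In the same order, Dkc1 with Nhp2, of the same particle, had -0.59, 0.14 and -0.23, and Nop56 with Fbl -0.28, 0.32 and -0.08. These are descriptions of libraries that share depth and base composition. The genes outside the list most like the mean of its z-scores over the 19 libraries were Pa2g4 (r = 0.91), Hmox2 (0.86), Actl6a (0.86), Cdca3 (0.86) and Cct3 (0.84).

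Of the 132 other ribosome biogenesis genes 65 had a positive slope on Myc in the 19 libraries, with a median of -0.01. Of these genes 12 were called with a positive and 5 with a negative slope, beside 7.05% and 11.0% of all tested genes. The slope was positive for 28 of 85 genes under 50% GC and for 37 of 47 at or above it. The processome gene Imp3 had a slope of 1.78 (SE 0.37, adjusted edgeR p = 0.00743) with 55.7% GC, and the helicase gene Ddx55 one of -1.05 (SE 0.21, adjusted edgeR p = 0.00687) with 51.1% GC. Without the 5 low-GC libraries 0 of the 132 were called, and 19 had an unadjusted edgeR p under 0.05, beside 16.6% of all tested genes. With GC correction 0 were called as well, beside 2.14% of all tested genes. With the low-GC covariate 7 were called with a positive and 2 with a negative slope, beside 7.25% of all tested genes in either direction.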

How the data were processed

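RNA of 19 tumours was analysed from a deposited table of expected counts. Per the labels' protocols, RNA was extracted with Trizol and stranded poly(A) libraries were sequenced from both ends. GRCm38, kallisto 0.44.0, limma and edgeR stand in the submitters' processing notes, without roles. The deposited expected counts are fractional, and 0 of 387651 values above 0 were whole within 1e-09; their summing from transcripts to genes is not described in the labels. They were rounded, filtered (filterByExpr), TMM normalized and tested by the quasi-likelihood test of edgeR 4.0.16 in R 4.3.3, with Benjamini-Hochberg adjustment over all genes tested. Designs were treatment alone, treatment plus log2 CPM of Myc, treatment plus first title number, and their interaction. Log2 CPM used a prior count of 2. Permutation p-values used 100000 resamples. The smallest p this allows is 1e-05. Transcript GC and coordinates came from GENCODE M21 on GRCm38. Members and lists were chosen with earlier results of these data known. All 36 genes could be named, with levels in full for Myc and the 3 smallest p per comparison. Alternatives were limma-voom 3.58.1, DESeq2 1.42.0, RLE factors, no filter, covariates, a block on the full title number, each number alone and leaving out tumours. Fits without low-GC libraries were listed from the start; GC correction per library (loess, span 0.3) and a low-GC covariate were chosen after seeing the data. The scripts were tested on simulated data. No 2 libraries of a group were duplicates (lowest chi-square per degree of freedom 42.1 over 81 pairs).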

Additional observations from a re-analysis of the deposited data

How the results depend on the processing

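The 27HC comparison, the first number and the interaction kept 0 members called under every alternative run, and the median over members kept its sign; with 1 tumour left out it ran from -0.13 to -0.06 for 27HC, from -0.08 to -0.03 for the first number and from -0.20 to -0.01 for the interaction. DESeq2 called 2 genes for 27HC, neither a member. Of the 36 genes, 13 changed sign with number 1 alone and 7 with number 2 alone. The slope on Myc depended on the libraries. Without the 5 low-GC libraries it gave 70 calls, 0 members and a member median of 0.056, GC correction gave 330 and 2 (median slope of all genes 0.05, against -0.09), a low-GC covariate 1133 and 3, and limma-voom 3058, of which 1690 were positive, against 1101 of 2823 in edgeR. With the full title number as a replicate block it gave 0 calls (2828 with an unadjusted p under 0.05), 0 members and a median of 0.34. Whether the numbers pair the tumours could not be decided: of 9 pairs 5 correlated over 0.1 and 2 correlated best with their own number, from -0.43 to 0.78. The low-GC DMSO replicates 1_5 and 2_3 share their numbers with low-GC 27HC replicates. Leaving out 1 tumour gave 35 to 5457 calls, 0 to 14 members and medians of 0.073 to 0.33. Calls fell to 40, 73 and 43 without 27HC replicates 1_3, 1_5 and 2_3 and to 35 and 46 without DMSO replicates 1_5 and 2_3, and to 1804 without 27HC replicate 1_1, and went to 5457 without 27HC replicate 2_1. Of 35 members, 14 were called without 27HC replicate 2_1, beside 5457 of 15526 tested genes. Without DMSO replicate 1_2 it was 10 members, beside 3727 of 15724 genes, and without DMSO replicate 2_2 it was 2, beside 1936 of 15793. The cause was not tested. With 9 and 10 tumours, differences within the printed intervals remain compatible with the data.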
